A study of Mus musculus with 12 samples.

Results

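The genes described here are transporters of ions, metals, water and mitochondrial metabolites, together with ion-pumping ATPases and ABC transporters, measured in the small intestine of fed and fasted mice. They were taken by symbol from the gene names of the arrays, as names beginning with Slc4, Slc8, Slc9, Slc11, Slc12, Slc13, Slc20, Slc24, Slc25, Slc26, Slc30, Slc31, Slc34, Slc39, Slc40 or Slc41, names beginning with Atp1, Atp2, Atp7 or Atp8, the ABC families A to G, and the aquaporins. The rule found 67 genes of the 18116 named on the array, and 81 of its 20280 probes. A few members were caught by their letters alone: Slc4a1ap is an adaptor protein, Slc9a3r1 (NHERF1) a scaffold that holds exchangers at the apical membrane, and Abce1, Abcf2 and Abcf3 are ATPases of ribosome function that move no solute.

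Male FVB mice, 6 weeks old, were either fed or fasted for 12, 24 or 72 h by removing chow, with 6 mice per group. Each group was measured as 3 pools of the RNA of 2 mice, one 2-colour oligonucleotide array per pool, 12 arrays in all. The pool was labelled with Cy3 and set against a Cy5-labelled RNA from fed mice that served as the reference on each array. Fasted beyond 24 h, mice were also warmed under a lamp, so warming and the longer fast cannot be told apart. They were housed in metabolic cages, and the labels do not say whether the fed mice were too. All values below are log2 ratios of Cy3 over Cy5 after quantile normalization, and a difference is "called" where the limma fit over all probes gave an adjusted p under 0.05. RNA of whole intestine was measured, in which fewer cells of a type and less RNA per cell cannot be told apart.

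The absorptive epithelium takes up ions through apical transporters and is driven by the basolateral sodium-potassium pump, which keeps intracellular sodium low. Iron enters through the divalent metal transporter Slc11a2 and leaves for the blood through ferroportin, Slc40a1. Copper enters through Slc31a1 and leaves through the copper ATPase Atp7a. Mitochondrial carriers of the Slc25 family exchange metabolites across the inner membrane, and ABC transporters use ATP to export drugs, bile acids, lipids and haem-related compounds.

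Each array gave a median Cy3 spot intensity 3.36 to 6 times its local background, and 1.65 to 2.11 times in Cy5. The files of the fed and 72 h arrays share one layout and those of the 12 h and 24 h arrays another, and the median Cy5 intensity was 124 to 142 in the former and 393 to 627 in the latter. The effect of 12 h or 24 h of fasting and the difference in layout cannot be told apart, whereas 72 h against fed, and 24 h against 12 h, lie within a layout. The Cy5 channel, which should hold the same RNA everywhere, was called against the fed arrays in 25 of the 81 member probes after 12 h of fasting, in 19 after 24 h and in 0 after 72 h, beside 21.7%, 20.6% and 0% of all probes. The array of 12 h replicate 1 had 1115 outlier spots, against 55 to 263 on the others, and 8 of its 81 member values were left out. For 57 probes the signal was well above background on all 3 fed arrays, and for 12 on none of them.

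Of the 81 probes, 12 were called at 12 h against fed, 6 higher and 6 lower. This was 14.8% of the members, beside 10.8% of all probes (4.81% higher and 5.98% lower). At 24 h, 10 were called, 6 higher and 4 lower, or 12.3% beside 10.1% of all probes (3.79% higher and 6.3% lower). At 72 h, 11 were called, 5 higher and 6 lower, or 13.6% beside 10.6% (4.85% higher and 5.7% lower). In all, 24 probes of 23 genes were called at one or more times, 57 probes at none, and 0 in opposite directions at different times. The median log2 difference of the members was 0.03, 0.14 and -0.08 at the 3 times, and that of all probes -0.02, 0.02 and 0.01. These counts, and those over all probes, moved with single arrays. The count at 12 h became 4 without fed replicate 1, 4 without fed replicate 3 and 24 without 12 h replicate 1, while that over all probes went from 2188 to 797, 579 and 4605. At 24 h it became 4 without fed replicate 1, 5 without fed replicate 2, 5 without fed replicate 3, 4 without 24 h replicate 1, 5 without 24 h replicate 3 and 19 without 12 h replicate 3. Over all probes the 24 h count went from 2046 to 630, 986, 988, 807, 1118 and 4014 in the same order. At 72 h it became 6 without 72 h replicate 1, 7 without 72 h replicate 3 and 20 without 12 h replicate 3, and over all probes it went from 2140 to 861, 1456 and 3738.

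**Figure D1:**
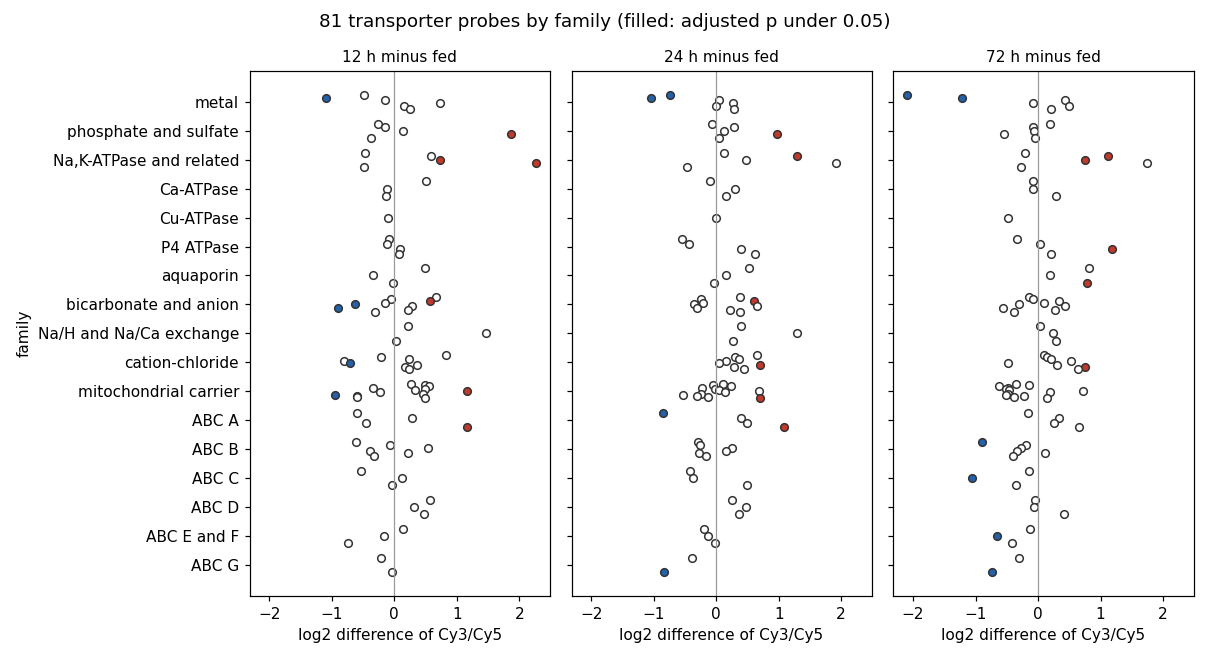
Difference of the log2(Cy3/Cy5) ratio from the fed pools (x axis) of each of the 81 probes, by family (y axis), for 12, 24 and 72 h. Filled points are called (red higher, blue lower) and open points are not. The largest called fall is ferroportin in the metal row at 72 h, at -2.10.

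Ferroportin showed the largest called fall of the members against the fed pools. Its probe carries the old array name Slc39a1, described there as the iron-regulated transporter, and its gene ID belongs to Slc40a1 today (chromosome 1, 45908070 to 45926532, GRCm38.p6). The log2 ratio of Slc39a1, as the files name it, was 0.00, -0.27 and 0.43 in the fed pools and -0.52 and -0.35 in the 12 h pools measured. It was -0.93, -0.42 and -0.70 at 24 h and -2.15, -2.08 and -1.90 at 72 h. The 72 h pools lay below all others. The difference from fed was -0.48 ± 0.22 (SE, adjusted p = 0.17) at 12 h, -0.74 ± 0.20 (adjusted p = 0.034) at 24 h and -2.10 ± 0.20 (adjusted p = 9.5e-05) at 72 h, a 4.28-fold fall. The Cy3 channel alone gave -1.82 at 72 h. The 72 h call was kept under each of the 13 alternatives and without each array in turn. The 24 h call was kept under 9 of the 13. It was lost without background correction, without moderation, and with the Feature Extraction log ratio or the deposited value table. It was also lost without fed replicate 1 or 3, 24 h replicate 1 or 3, or 72 h replicate 2, at -0.76 to -0.55 (adjusted p = 0.051 to 0.13).

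The copper importer Slc31a1 (chromosome 4, 62360583 to 62391769) has 2 probes, which differed. The brighter, A_65_P01815, read 0.26, 0.11 and 0.66 in the fed pools, -0.41, -0.76 and -1.06 at 12 h and -0.78, -0.53 and -0.76 at 24 h. After 72 h of fasting it read -0.92, -0.74 and -0.94. All fasted pools lay below all fed pools. The differences were -1.09 ± 0.19 (adjusted p = 0.0063), -1.04 ± 0.19 (adjusted p = 0.0066) and -1.21 ± 0.19 (adjusted p = 0.0015), with no array whose omission ended a call. At 12 h most of this lay in the reference, with -0.16 in Cy3 alone and 0.92 in Cy5, while at 24 h and 72 h the Cy3 values were -0.96 and -1.001. The dimmer probe, A_65_P11886, was 0.73 ± 0.24 (adjusted p = 0.064), 0.27 ± 0.24 (adjusted p = 0.49) and -0.08 ± 0.24 (adjusted p = 0.88), so the fall from fed was called on 1 of the 2 probes of the gene. Between 12 h and 72 h it was the dimmer probe that was called, at -0.81.

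The remaining metal transporters were not called at any time. Slc11a2, the importer of iron, differed from fed by 0.25, 0.28 and 0.21 at 12, 24 and 72 h (adjusted p = 0.57, 0.53 and 0.68). The zinc exporters Slc30a3 and Slc30a4 reached 0.49 and 0.44 at 72 h (adjusted p = 0.098 and 0.22). Atp7a, which exports copper, was at -0.11, 0.00 and -0.49, the last with an adjusted p of 0.055.

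Of the 6 listed iron genes outside the rule that are on the array, 0 were called at 12 h or 24 h and 3 were lower at 72 h, with a list median of -0.54. These were the ferritin heavy chain Fth (-1.44 ± 0.22, adjusted p = 0.0017) and light chain Ftl1 (-0.71 ± 0.18, adjusted p = 0.024), which store iron, and the transferrin receptor Trfr (-1.31 ± 0.27, adjusted p = 0.0077), which takes up transferrin-bound iron. The oxidase Heph, which works beside ferroportin, was at -0.38 (adjusted p = 0.28) and Hfe at -0.33 (adjusted p = 0.26). Of 5 copper and zinc genes on the array, metallothionein Mt1 was higher at 24 h (2.45) and 72 h (2.35), Mtf2 lower at both (-0.98 and -0.98) and the copper chaperone Ccs lower at 72 h (-0.60).

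**Figure D2:**
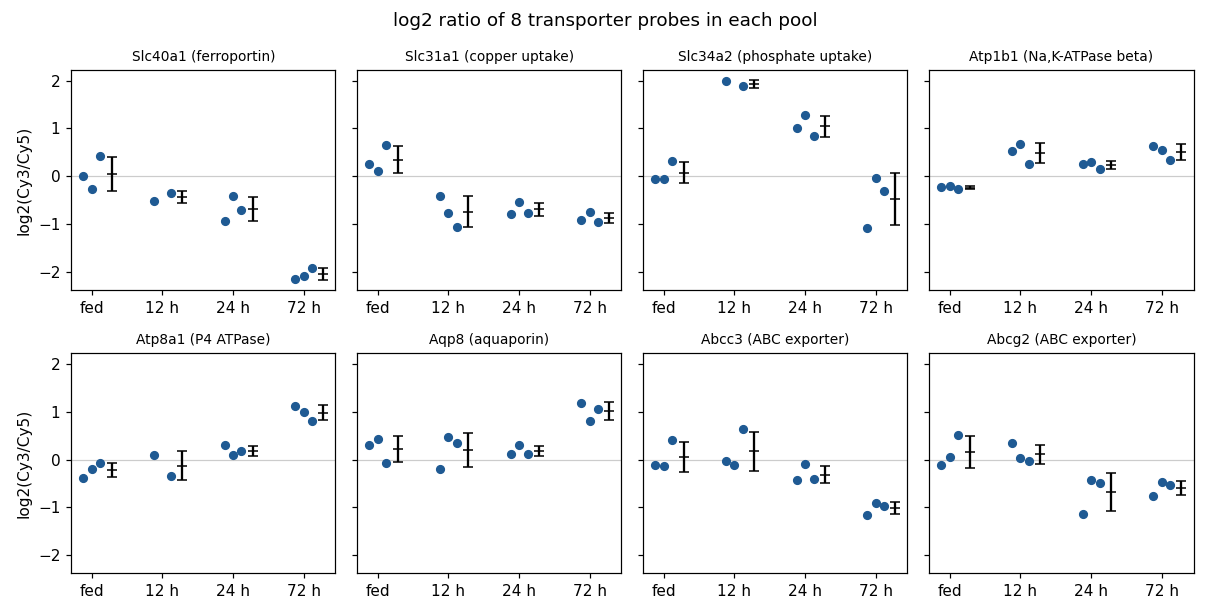
The log2(Cy3/Cy5) ratio (y axis) of 8 probes in each pool (points), by time (x axis), with the mean and SD of the pools to the right of each group. Slc40a1 at 72 h lies between -2.15 and -1.90, and the Slc34a2 pools of 12 h lie at 1.99 and 1.88, above all other pools.

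The phosphate cotransporter Slc34a2 (chromosome 5, 53049353 to 53071664), which takes up phosphate with sodium at the apical membrane, was higher at 12 h and 24 h and fell between these times and 72 h. Its probe A_65_P13774 read -0.05, -0.05 and 0.33 in the fed pools and 1.99 and 1.88 in the 12 h pools measured. It read 1.00, 1.28 and 0.83 at 24 h and -1.09, -0.03 and -0.30 at 72 h. The differences from fed were 1.86 ± 0.27 (adjusted p = 0.0029) or 3.63-fold, 0.97 ± 0.24 (adjusted p = 0.025) and -0.55 ± 0.24 (adjusted p = 0.17). Cy3 alone gave 2.21, 0.83 and -0.52 at the 3 times. The fall from 12 h to 72 h was -2.41 ± 0.27 (adjusted p = 0.00035) and from 24 h to 72 h -1.52 ± 0.24 (adjusted p = 0.0026), both kept under each alternative. The 24 h call was lost without fed replicate 1 or 2 or 24 h replicate 1 or 2, at 0.85 to 0.98 (adjusted p = 0.07 to 0.09). The second probe of the gene, A_65_P08118, which is dimmer, differed from fed by 0.14, 0.12 and -0.06 (adjusted p = 0.78, 0.80 and 0.91). The related Slc34a1, Slc20a1 and Slc20a2 were not called, with differences from fed between -0.37 and 0.29.

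The 250 bases before the start of Slc34a2 (chr5:53049103-53049352, + strand), Atp1b1 (chr1:164458356-164458605, - strand) and Abcb6 (chr1:75180393-75180642, - strand) are printed from RefSeq (GRCm38.p6), 5′ to 3′, because these members were higher at 12 h and 24 h, higher at 12 h and 72 h, and lower at 72 h. Of the 67 genes, 50 had such a window. Capitals mark exact matches on either strand to GGGCGG, the core of the GC box, and to TATAAA, a form of the TATA box. Other forms of these elements were not searched for and are not marked.
Slc34a2: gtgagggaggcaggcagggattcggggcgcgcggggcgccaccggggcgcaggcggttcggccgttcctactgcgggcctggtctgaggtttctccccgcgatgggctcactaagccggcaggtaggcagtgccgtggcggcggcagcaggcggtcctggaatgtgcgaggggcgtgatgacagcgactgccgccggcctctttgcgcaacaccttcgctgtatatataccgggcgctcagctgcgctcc
Atp1b1: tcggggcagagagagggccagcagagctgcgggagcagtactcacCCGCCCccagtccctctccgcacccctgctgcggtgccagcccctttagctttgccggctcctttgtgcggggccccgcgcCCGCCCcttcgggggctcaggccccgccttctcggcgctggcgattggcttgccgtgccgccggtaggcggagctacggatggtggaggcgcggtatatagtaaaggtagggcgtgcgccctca
Abcb6: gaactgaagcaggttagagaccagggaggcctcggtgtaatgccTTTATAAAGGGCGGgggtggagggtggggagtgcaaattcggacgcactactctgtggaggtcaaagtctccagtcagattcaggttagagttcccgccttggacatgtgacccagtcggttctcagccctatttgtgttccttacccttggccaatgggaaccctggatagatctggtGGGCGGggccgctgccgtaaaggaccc
Slc34a2 held no exact match to either string, and Atp1b1 held 2 matches to GGGCGG and none to TATAAA. Abcb6 held 2 matches to GGGCGG and 2 to TATAAA, 1 on each strand, which overlap each other. Of the 32851 windows of this length, 32.7% held GGGCGG and 12.4% TATAAA. A match says only that these letters are in the window, and the lack of a match does not mean that the promoter has no TATA box or GC box of another form.

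Atp1b1 (chromosome 1), the beta subunit of the sodium-potassium pump that helps bring it to the membrane, read -0.23, -0.20 and -0.27 in the fed pools. It read 0.52, 0.68 and 0.26 at 12 h and 0.25, 0.31 and 0.15 at 24 h. After 72 h of fasting it read 0.64, 0.55 and 0.33. All fasted pools lay above all fed pools. The differences were 0.72 ± 0.15 (adjusted p = 0.013), 0.47 ± 0.15 (adjusted p = 0.067) and 0.74 ± 0.15 (adjusted p = 0.0071), with no array whose omission ended the calls at 12 h or 72 h. In Cy3 alone the rises were 1.17 and 0.96, and the latter was not called. Each of these 2 calls was kept under 11 of the 13 alternatives. Both were lost with median centring, and that at 12 h also with only the arrays of the groups compared. The isoforms Atp1b2 and Atp1b3 were not called, with differences from fed of -0.47 to 0.13 and -0.49 to -0.28. Of 3 regulators on the array, the kinase Sgk, which raises sodium transport, was higher at 24 h (1.21) and 72 h (1.75, adjusted p = 9.5e-05), and the scaffold Pdzk1 lower at 12 h (-0.60) and 72 h (-0.87).

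Atp8a1, a P4 ATPase that moves aminophospholipids to the inner leaflet of membranes (chromosome 5), rose late. It read -0.38, -0.19 and -0.08 in the fed pools, 0.09 and -0.34 in the 12 h pools measured, 0.30, 0.09 and 0.17 at 24 h and 1.12, 0.99 and 0.81 at 72 h. The 72 h pools lay above all others. The differences from fed were 0.09 (adjusted p = 0.79), 0.40 (adjusted p = 0.14) and 1.19 ± 0.17 (adjusted p = 0.00097). It was not well above background on any fed array, and the fed level is therefore a bound. On a scale other than the ratio, that of Cy3 values normalized by loess and Aquantile, 72 h was at least 2.54-fold above fed, with dim arrays set to the lowest signal well above background or the probe's own where higher. The ratio itself gave 2.28-fold, and its log2 difference ran from 0.78 to 1.82 over the alternatives, so the bound holds for the Cy3 scale alone. With no dye swap among the arrays, a bias of the dyes is part of this bound and of that given for Slc12a5. Its call was kept under each of the 13 alternatives and without each array. The other P4 ATPases, Atp10a, Atp10d and Atp11a, were not called, nor were the calcium pumps Atp2a1 and Atp2a2 of the sarcoplasmic and endoplasmic reticulum, which differed from fed by -0.14 to 0.51.

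The water channel Aqp8 (chromosome 7) was higher in ratio at 72 h. It read 0.30, 0.43 and -0.07 in the fed pools, -0.20, 0.47 and 0.35 at 12 h and 0.13, 0.30 and 0.12 at 24 h. After 72 h of fasting it read 1.17, 0.80 and 1.05. The difference from fed at 72 h was 0.79 ± 0.20 (adjusted p = 0.020). In Cy3 alone it was -0.03, and in the reference -0.82, so its ratio and its Cy3 signal disagree. The call was lost without fed replicate 1 or 3 or 72 h replicate 1 or 3, at 0.64 to 0.83 (adjusted p = 0.051 to 0.11). Against 24 h the Cy3 value was 1.72 and against 12 h 1.26, where the ratio gave 0.82 and 0.80. Aqp1 differed from fed by 0.49, 0.52 and 0.82 (adjusted p = 0.46, 0.45 and 0.25), and Aqp9 by -0.34, 0.15 and 0.19.

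Among the cation-chloride cotransporters, 8 probes of 6 genes, 1 probe was called against fed at each time. Slc12a5 was higher at 24 h by 0.70 ± 0.19 (adjusted p = 0.033). Its fed arrays were all dim, and the bound on the Cy3 scale was at least 1.38-fold. The Slc12a5 call was lost in Cy3 alone, without background correction and without moderation. It was also lost without fed replicate 1 or 3 or any 24 h array, at 0.51 to 0.76 (adjusted p = 0.056 to 0.12). Slc12a1 was higher at 72 h by 0.75 ± 0.19 (adjusted p = 0.020), on a probe also dim in the fed pools. It was well above background on 2 of the 3 arrays at 72 h, so no bound is given. The call was lost in Cy3 alone, with loess and Aquantile and without background correction. It was also lost without fed replicate 1 or 3 or 72 h replicate 1 or 2, at 0.58 to 0.74 (adjusted p = 0.067 to 0.13). Slc12a2, which loads chloride into secretory cells, was at 0.64 at 72 h (adjusted p = 0.050) and was not called.

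The bicarbonate and anion exchangers, 9 probes of 6 genes, gave 1 higher and 2 lower calls at 12 h, 1 higher at 24 h and 0 at 72 h. Slc4a1, the band 3 exchanger of red cells, read -0.29, -0.44 and -0.07 in the fed pools and between 0.25 and 0.33 at 12 h, a difference of 0.57 ± 0.16 (adjusted p = 0.040), and 0.60 ± 0.16 (adjusted p = 0.034) at 24 h. In Cy3 alone these were 0.13 and 0.08, and the calls were kept under 6 and 10 of the 13 alternatives. Its 12 h call was kept only without 12 h replicate 1 or 24 h replicate 1 or 3 (otherwise 0.48 to 0.67), and its 24 h call was lost without fed replicate 1 or 2, 24 h replicate 1 or 2 or 72 h replicate 1 (0.48 to 0.60). The erythroid marker on the array, Ermap, was at -0.09 and -0.45 at these times (adjusted p = 0.83 and 0.22). Slc4a3 fell by 0.63 at 12 h (adjusted p = 0.030), with -0.74 in Cy3 alone. Its call was kept under 7 of the 13 alternatives. It was lost without background correction, with loess and Aquantile, the Feature Extraction log ratio, the deposited value table, only the arrays compared or the replicate block. It was also lost without fed replicate 1 or 3 or 12 h replicate 2 or 3, at -0.64 to -0.51. Slc4a2, a basolateral exchanger of epithelia, was at 0.66, 0.38 and -0.14 (adjusted p = 0.093, 0.34 and 0.77). The 3 probes of the adaptor Slc4a1ap did not move together: at 12 h A_65_P13141 was at -0.91 ± 0.25 (adjusted p = 0.036), A_65_P16732 at -0.31 and A_65_P12722 at 0.29. The call on A_65_P13141 was kept under 4 of the 13 alternatives. With single arrays left out, it was kept only without fed replicate 2, 12 h replicate 1, 24 h replicate 1 or 72 h replicate 1, and was otherwise at -0.94 to -0.58. Slc9a3r1 was at 1.46, 1.29 and 0.24 (adjusted p = 0.063, 0.098 and 0.80) and was not called. Its fed pools read -0.88, -0.53 and -1.24 and its 12 h pools -0.36, -0.18 and 2.28. On these 12 h arrays the log2 values were 12.36, 12.29 and 9.77 in Cy5, and 12.00, 12.11 and 12.05 in Cy3. The sodium-calcium exchanger Slc8a1 was not called. Of 3 carbonic anhydrases on the array, Car2 was lower at all 3 times (-1.30, -1.12 and -1.65). Of the 7 chloride and potassium channels on the array, Kcnq1 alone was called against fed, higher at 72 h (0.81). Between 24 h and 72 h, Kcnq1 (1.06) and Clcn3 (0.57) were higher and Clcn4-2 lower (-0.64). Of the 3 calcium genes, the intracellular calcium carrier Calb3 was lower at 24 h (-1.68) and 72 h (-4.11 ± 0.21, adjusted p = 1.5e-07).

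The mitochondrial carriers, 13 probes of 11 genes, were called 1 higher and 2 lower at 12 h, 1 higher at 24 h and 0 at 72 h, with family medians of 0.33, -0.02 and -0.38. The dicarboxylate carrier Slc25a10 was higher at 12 h on A_65_P08092, 1.16 ± 0.28 (adjusted p = 0.021), and its dimmer probe A_65_P06745 was at 0.33 (adjusted p = 0.33). On A_65_P08092 the fed pools read -0.44, -0.12 and -0.81 and the 12 h pools 0.17, 0.50 and 1.44. In log2 its 12 h arrays read 11.55, 11.12 and 9.20 in Cy5, and 11.73, 11.62 and 10.64 in Cy3. The ornithine carrier Slc25a15, part of the urea cycle, fell on A_65_P17836 at 12 h (-0.95 ± 0.21, adjusted p = 0.016), while its other probe A_65_P04703 was at 0.49 (adjusted p = 0.40). The aspartate-glutamate carrier Slc25a13 read 0.18, 0.09 and 0.18 in the fed pools and -0.50, -0.44 and -0.38 at 12 h, a difference of -0.59 ± 0.13 (adjusted p = 0.017). Of these 3 calls, none passed in Cy3 alone, where the values were 0.76, -0.48 and -0.55. Those of Slc25a10 and Slc25a13 were lost without fed replicate 1 or 3 (0.98 to 1.16, and -0.58 to -0.57), and that of Slc25a15 without fed replicate 1 or 12 h replicate 3 (-0.93 to -0.64). The peroxisomal carrier Slc25a17 was higher at 24 h by 0.70 ± 0.20 (adjusted p = 0.036), lost without any fed array, 24 h replicate 1 or 3 or 72 h replicate 1, at 0.52 to 0.77. The carnitine-acylcarnitine carrier Slc25a20, which brings fatty acyl groups in for oxidation, was at 0.46, -0.24 and -0.48 (adjusted p = 0.13, 0.43 and 0.12), and the abundant adenine nucleotide carrier Slc25a5 and phosphate carrier Slc25a3 were not called at any time. Of the uncoupling proteins, Ucp2 was on the array and was higher at 12 h (1.31) and 24 h (1.42), with -0.50 and 0.90 in Cy3 alone. Of 12 subunits of the vacuolar proton ATPase, 4 were higher and 1 lower at 12 h. The counts were 1 higher and 1 lower at 24 h, then 0 higher and 2 lower at 72 h.

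Among the 21 ABC probes, Abca3, a lipid transporter, was higher at 12 h (1.17 ± 0.26, adjusted p = 0.016) and 24 h (1.09 ± 0.23, adjusted p = 0.014), and Abca5 lower at 24 h (-0.85 ± 0.21, adjusted p = 0.022). Abca3 was well above background on 1 of the 3 fed arrays, and its 12 h pools measured read 0.95 and 0.65. Its call was kept under 6 of the 13 alternatives at 12 h, not including Cy3 alone, and under 10 of the 13 at 24 h. The calls of Abca3 were lost at 12 h without fed replicate 3 or 12 h replicate 2 (0.90 to 1.02) and at 24 h without 24 h replicate 3 (0.93), and that of Abca5 without any fed array or 24 h replicate 3 (-0.87 to -0.64). The exporter Abcg2, which returns drugs and urate to the lumen, read -0.11, 0.05 and 0.52 in the fed pools, -1.14, -0.43 and -0.48 at 24 h and -0.76, -0.48 and -0.53 at 72 h. It was lower at 24 h (-0.84 ± 0.22, adjusted p = 0.027) and 72 h (-0.74 ± 0.22, adjusted p = 0.040), with -0.30 and -0.31 in Cy3 alone. The 24 h call was lost without fed replicate 2 or 3 or 24 h replicate 1 (-0.89 to -0.61), and the 72 h call also without any 72 h array, 12 h replicate 2 or 24 h replicate 3, though not without 24 h replicate 1 (-0.80 to -0.56). The basolateral bile acid and conjugate exporter Abcc3 read -0.11, -0.14 and 0.41 in the fed pools and -1.15, -0.92 and -0.97 at 72 h. Its difference at 72 h, -1.06 ± 0.21 (adjusted p = 0.0059), was kept under each alternative and without each array. Abcb6, a porphyrin-associated transporter, was lower at 72 h (-0.90 ± 0.22, adjusted p = 0.018, lost without fed replicate 3 or 72 h replicate 1 or 3, at -0.89 to -0.69), as was Abcf3 (-0.66 ± 0.17, adjusted p = 0.022, lost without fed replicate 1 or 3 or 72 h replicate 1 or 2, at -0.66 to -0.60). Abca1, Abcb1b and Abcd3 were not called, with differences from fed between -0.45 and 0.57.

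**Figure D3:**
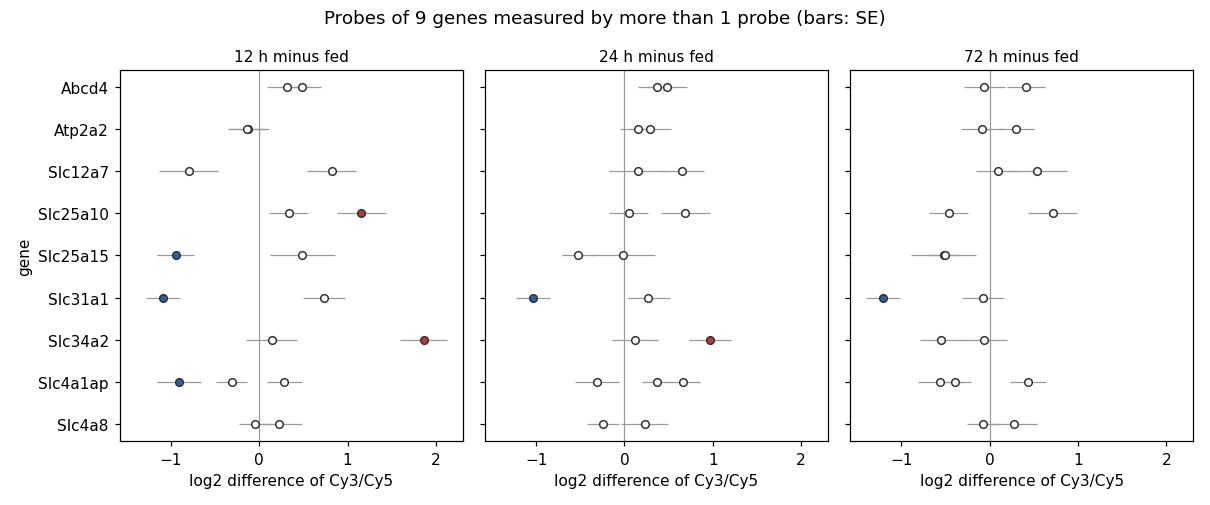
Difference from fed in log2(Cy3/Cy5) (x axis) of the 19 probes of 9 genes with more than 1 probe (y axis), with SE bars, at 12, 24 and 72 h. Filled points are called. The probes of Slc31a1 lie on opposite sides of 0 at 12 h, at -1.09 and 0.73.

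Among 9 genes measured by more than 1 probe, 19 probes in all, those of Slc31a1, Slc12a7, Slc25a15, Slc4a1ap and Slc4a8 lay on both sides of 0 at 12 h. For Slc12a7 the probes were at 0.82 and -0.80 there (adjusted p = 0.074 and 0.13). Which probe measures its gene was not tested.

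**Figure D4:**
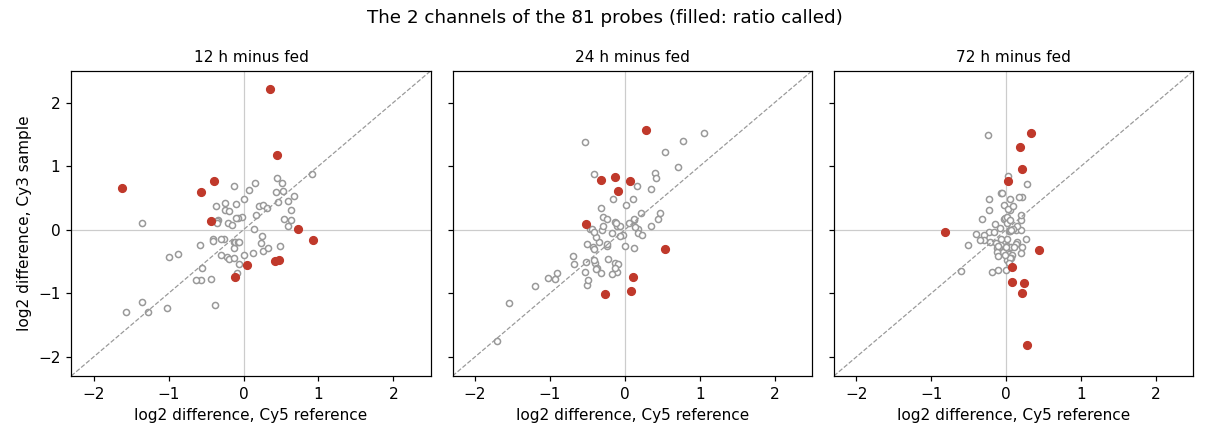
Difference from fed of the Cy3 sample (y axis) against that of the Cy5 reference (x axis), both log2, for the 81 probes, with the dashed line where both change alike. Filled points are the probes called in the ratio. At 72 h no probe was called in Cy5, and ferroportin lies lowest at -1.82 in Cy3.

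The calls were set beside the Cy3 channel alone, where 14.8%, 24.6% and 8.42% of all probes were called at 12, 24 and 72 h. Cy3 alone called 6 members higher and 11 lower at 12 h, 10 higher and 21 lower at 24 h and 3 higher and 5 lower at 72 h, where the ratio called 6 and 6, 6 and 4, and 5 and 6. Of the members called in the ratio, 3 of 12 at 12 h, 6 of 10 at 24 h and 7 of 11 at 72 h were also called there in the same direction. Those at 12 h were Slc34a2, Atp1b1 and Slc4a3. The reference moved by more than Cy3 in 4 of the 12, 2 of the 10 and 2 of the 11. Pools did not overlap with the fed pools in 28, 36 and 45 of the 81 probes, 34.6%, 44.4% and 55.6%, beside 30.9%, 40.4% and 41.8% of all probes.

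Between the fasting times, 0 of 81 probes were called at 24 h against 12 h in limma, beside 2.9% of all probes. At an unadjusted p under 0.05 there were 23 members, and 4258 of all 20280 probes. The count became 1 without fed replicate 2, 12 h replicate 2 or 3 or 72 h replicate 1, 4 without fed replicate 3 and 10 without 12 h replicate 1, while that over all probes went from 589 to between 391 and 709, 662 and 1504. At 72 h against 24 h, 6 were called (7.41% beside 10.6%), 2 higher and 4 lower, beside 5.93% and 4.68% of all probes. At 72 h against 12 h, 13 were called (16% beside 10.6%), 3 higher and 10 lower, beside 5.84% and 4.75% of all probes. Cy3 alone called 16.7% and 18% of all probes in these comparisons, with 7 members higher and 9 lower, and 12 higher and 12 lower. It called 5 of the 6 and 10 of the 13 in the same direction. Besides Slc34a2, ferroportin was lower at 72 h than at 24 h (-1.36 ± 0.20, adjusted p = 0.0016) and 12 h (-1.61 ± 0.22, adjusted p = 0.0012), and Atp8a1 higher (0.79 ± 0.17, adjusted p = 0.011, and 1.10 ± 0.19, adjusted p = 0.0038). The first of these Atp8a1 calls was lost without 72 h replicate 1, at 0.71 (adjusted p = 0.069). Of the 10 lower at 72 h than at 12 h, 5 were mitochondrial carriers, of malate and oxoglutarate (Slc25a11, -1.18), of acylcarnitine (Slc25a20, -0.94), of dicarboxylates (Slc25a10 on A_65_P06745, -0.80), of aspartate and glutamate (Slc25a12, -0.64) and of citrate (Slc25a1, -0.61). The brighter Slc25a10 probe, A_65_P08092, was at -0.45 in this comparison (adjusted p = 0.32). On A_65_P06745 the 12 h pools read -0.03, 0.04 and 0.89 and the 72 h pools -0.68, -0.33 and -0.49. In log2 its 12 h arrays read 10.16, 10.27 and 8.94 in Cy5, and 10.13, 10.31 and 9.84 in Cy3. Slc25a20 read 0.49, 0.56 and 0.92 at 12 h and -0.35, -0.22 and -0.28 at 72 h, and its difference held without each array. The count at 72 h against 24 h became 10 without fed replicate 3, 11 without 12 h replicate 1, 20 without 12 h replicate 3 and 2 without 72 h replicate 1, and over all probes it went from 2151 to 2432, 2774, 3950 and 560. At 72 h against 12 h it became 20 without 12 h replicate 1, 5 without 72 h replicate 1, 8 without 72 h replicate 2 and 6 without 72 h replicate 3, and over all probes it went from 2147 to 3256, 626, 1360 and 892.

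Markers of other cells moved beside these calls. Of 21 listed markers on the array, 6 were higher and 0 lower at 12 h. At 24 h there were 2 higher and 1 lower, and at 72 h 2 higher and 3 lower. At 12 h, 4 of 6 smooth muscle markers were higher (Acta2 2.36, Actg2 1.79, Des 1.71 and Smtn 1.43), although the summed Cy3 level of the list was 4643 to 7007 against 4684 to 6099 in the fed pools, a spot left out as an outlier counting as 0. The enterocyte list summed to 74828 to 125657 in the fed pools, 105311 to 111357 at 12 h, 122002 to 123464 at 24 h and 96732 to 102842 at 72 h. At 72 h the plasma cell list summed to 965 to 1207 against 2969 to 4233 in the fed pools. Of its 4 markers 2 were called lower, with values from -3.19 (Igj) to 0.35. The goblet cell marker Agr2 was at -1.43. Of the 2 Paneth cell markers Mmp7 was higher at 12 h (2.02), and of the 3 enterocyte markers Anpep (3.45). In Cy3 alone these were 1.36 and 1.28, and neither was called there. The other markers of these lists were not called at 12 h, with Lyzs at 1.06, Apoa1 at 1.35 and Apoa4 at -0.39. None of the markers of erythroid cells (1 on the array), endothelium (1), neurons (2) or exocrine pancreas (1) was called against fed. None of the adipose markers is on the array. The part of these lists in the calls was not tested.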

How the data were processed

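The members, gene lists and tests were chosen with earlier results of these data known. The authors deposited the output of Feature Extraction for each array, with uncorrected median intensities of spot and local background in each dye. The authors' deposited log10 ratio (a score, since the decimal point of 276 of 244452 cells had been moved and was restored, with 115 cells left out) and the value table made from it with the opposite sign served only as alternatives. Spots were background corrected with normexp (offset 50), the 24 channels quantile normalized, and of the 21446 spots the 1075 controls, 91 retired spots and outlier-flagged spots were left out. Spots of a probe were averaged. The log2(Cy3/Cy5) values of 20280 probes entered limma (version 3.58.1, R 4.3.3): all 12 arrays, 1 mean per group, no block, eBayes moderation and Benjamini-Hochberg adjustment. This takes the place of the analysis of variance in the study's methods. Alternatives covered the background step, normalization, dyes, arrays fitted, replicate block, filters, flags, moderation and thresholds. The fit was tested on simulated data. The number of arrays limits the precision.

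Named genes were the 6 largest called rises and the 6 largest falls at each time with pools that did not overlap, the 3 largest each way between fasting times, 27 members on the array from a list with a textbook role, and members of described families of 5 or fewer genes. Some members are not reported here by name, though they stay in the counts. Others were named after their values were seen. A gene's value is that of its brightest probe, apart from probes named for their own difference. Probes were matched by gene ID to RefSeq (81 of 81), and 1 symbol differs today. The R package data.table was version 1.17.8, and plots used matplotlib 3.10.9 and pandas 2.3.3 in Python 3.11.15. Pools are taken from the sample titles. Their labelling notes repeat other pool numbers. For fed replicate 3 the reference is labelled as the pool's own mice in one field and as the pool of 6 in another, and it was treated as the common reference.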

Additional observations from a re-analysis of the deposited data

Results flagged for a closer look

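These members are listed because limma found a difference between fasting times, which tests whether the effect of fasting differed between them. At 72 h against 12 h the log2 differences were -2.41 for Slc34a2, -1.61 for ferroportin (Slc39a1 in the files), -1.18 for Abcc3, -1.18 for Slc25a11, -0.94 for Slc25a20, -0.82 for Abcb10, -0.81 for Slc31a1 on A_65_P11886, -0.80 for Slc25a10 on A_65_P06745, -0.64 for Slc25a12, -0.61 for Slc25a1, 0.80 for Aqp8, 1.10 for Atp8a1 and 1.33 for Slc12a7 on A_65_P11752. At 72 h against 24 h they were -1.52 for Slc34a2, -1.36 for ferroportin, -0.84 for Abcc5, -0.76 for Slc4a1ap on A_65_P16732, 0.79 for Atp8a1 and 0.82 for Aqp8. The file layout differs between the 72 h arrays and the other fasted arrays, so time and layout cannot be told apart here. In Cy3 alone, 10 of the 13 and 5 of the 6 were also called in the same direction. Groups of 3 pools are too small for a check of single outlying pools.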

How the results depend on the processing

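Of 41 called single-gene results, 13 kept their call under all 13 alternatives and 16 without each array in turn, 11 in both. Counts of members called at 12 h, main value 12, were 7 without background correction, 6 with the Feature Extraction log ratio (2 higher, 4 lower), 6 with the deposited value table, 5 without moderation and 0 with only the arrays compared (22 at an unadjusted p under 0.05). At 24 h, main value 10, they were 16 with loess and Aquantile, 17 with median centring, 31 in Cy3 alone (10 higher, 21 lower), 17 with only the arrays compared and 4 without moderation. At 72 h, main value 11, the count was 17 with only the arrays compared. Between 24 h and 12 h, main value 0, it was 1 with loess, the log ratio, the value table, outlier spots kept or no moderation, 7 in Cy3 alone and 10 at the methods' thresholds (unadjusted p under 0.01 and 1.4-fold). Between 72 h and 24 h, main value 6, it was 12 with loess, the log ratio, the value table or the methods' thresholds, 16 in Cy3 alone and 23 with only the arrays compared. Between 72 h and 12 h, main value 13, it was 5 with median centring, 24 in Cy3 alone (12 higher, 12 lower), 6 with only the arrays compared and 6 without moderation. Without each array in turn the counts ran from 4 to 24 at 12 h, 4 to 19 at 24 h, 6 to 20 at 72 h, 0 to 10 between 24 h and 12 h, 2 to 20 between 72 h and 24 h and 5 to 20 between 72 h and 12 h. With all arrays kept, the counts of all probes under the alternatives ran from 2 to 3029 at 12 h, 1226 to 4988 at 24 h, 1439 to 3816 at 72 h, 22 to 1679 between 24 h and 12 h, 1256 to 4483 between 72 h and 24 h and 620 to 3658 between 72 h and 12 h. Median centring gave 4 higher and 13 lower at 12 h, 4 and 10 at 72 h and 2 and 3 between 72 h and 12 h, and the log ratio gave 4 and 6 there. In Cy3 alone Aqp8 at 72 h (-0.029) and at 24 h Abcd3 (-0.76) and Slc12a7 on A_65_P11752 (-0.78) turned sign. The causes were not tested.

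With the replicate number as a block, 8, 10, 10, 0, 7 and 13 members were called in the 6 comparisons. Deviations of same-numbered pools correlated at -0.30 to 0.13 (18 pairs, 2 over 0.1), and a pool correlated best with its own number in 5 of 36 cases. The main fit therefore used no pairing by number. Whether pools of a number shared a batch was not tested. The block for slide and scan date was not run, since neither is given in the files used here. Signal over background limits the Cy5 values and the 12 members dim on all fed arrays.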
